A study of Homo sapiens with 4 samples.

Results

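Weaker shared promoter peaks are places at gene starts where MEIS ChIP enrichment was found in both replicates but did not enter the authors' list of reproducible sites. They were chosen by measured values. A replicate 1 peak had to reach a −log10 p of at least 5, overlap no row of the list made with the irreproducible discovery rate (IDR), overlap a replicate 2 peak that also reached 5, and have its summit within 1 kb of a canonical protein-coding transcription start site (TSS). Of the 36796 peaks of replicate 1, 17246 reached the threshold, 12063 of these lay outside the reproducible list, and 1431 of these had their summit at a TSS. A replicate 2 peak that reached 5 overlapped 731 of the 1431 (51.1%), and these 731 are the members. A further 206 met only a weaker replicate 2 peak and 494 met none. Reproducible promoter peaks, used for comparison, are the 240 replicate 1 peaks that overlap the reproducible list and have their summit within 1 kb of a canonical TSS. Away from promoters the same steps kept 7167 of 10632 peaks (67.4%), among them a peak with a −log10 p of 667 in replicate 1 that overlapped no row of the reproducible list. The list used here has as many rows as the study reports binding sites, so by count no row is missing. Why so strong a peak overlapped none of its rows was not tested. The word "weaker" is therefore the name of the rule and not a limit on strength.

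The study mapped binding of MEIS1 and MEIS2 in hNSC, a commercial culture of human neural stem cells that was grown in serum-free medium and left untreated, by chromatin immunoprecipitation with sequencing of 36 bp read pairs. There were 2 MEIS ChIP samples and 2 Input samples, which are chromatin without immunoprecipitation and entered the values solely through the authors' peak calling. The labels name the antibody anti-MEISa, and the study's methods describe a mixture with an antibody against MEIS1, which leaves unknown whether MEIS1 or MEIS2 made a given peak. The study's methods speak of 2 batches of cells handled side by side, and the labels do not tie a batch to a replicate. Peak lists give no read totals, so the depth is unknown, and they carry no expression values against which the cell type could be checked. Whether each weaker peak is a site of MEIS binding was not tested. Where it is, it may stand for binding in fewer cells or for less binding per cell, and the assay cannot tell these apart.

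MEIS proteins belong to the TALE class of homeodomain factors, bind the core word TGACAG and pair on DNA with PBX proteins of the same class. The joint PBX-MEIS site places the bases read by PBX next to the MEIS core and was searched here as TGANTGACA. In neural development MEIS proteins act in progenitor cells and in neurons, and much of their binding lies at enhancers. A promoter is the stretch around a TSS where RNA polymerase II is loaded. Many promoters are rich in CpG and carry GC boxes, bound by SP factors, or CCAAT boxes, bound by NF-Y.

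The DNA under these peaks is shown first for 4 of the 5 strongest members that held TGANTGACA in the 500 bp around the summit, because this is the longer of the MEIS words searched and is read by MEIS together with PBX. Members were ranked by the lower of their −log10 p values in the replicates. Bases are from GRCh37, printed in the direction of the gene's transcription, with the word or its reverse complement in capitals. Stretches were cut to 30 bases where a longer one would reach annotated UTR.
ENSG00000257355, chr19:12163852-12163911, minus strand: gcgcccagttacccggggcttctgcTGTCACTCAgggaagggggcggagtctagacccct
AKTIP, chr16:53537379-53537438, minus strand: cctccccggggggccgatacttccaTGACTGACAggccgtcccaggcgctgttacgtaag
CP, chr3:148939641-148939700, minus strand: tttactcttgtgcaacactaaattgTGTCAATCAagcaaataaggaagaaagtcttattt
STX7, chr6:132834309-132834338, minus strand: tgagggccgcTGTCACTCAgccccgcgggc
The word's centre lay 5 bp from the replicate 1 summit at ENSG00000257355 and 4 bp from it at AKTIP, but 127 bp away at CP and 170 bp at STX7. The unnamed gene ENSG00000257355 begins beside the zinc finger gene ZNF878 on the same strand.

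The strongest members with TGACAG within 50 bp of the summit show the core word alone, again in capitals. Of the 5 first, 3 are printed here, and ENSG00000257355 was among the 5 as well, with its sequence above.
ZNF132, chr19:58951521-58951580, minus strand: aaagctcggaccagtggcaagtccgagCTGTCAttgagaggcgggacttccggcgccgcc
SCRN3, chr2:175260454-175260483, plus strand: cgagatcaaaggTGACAGcttccggcaact
TERF2IP, chr16:75681691-75681720, plus strand: aggcgtctgcggTGACAGctcagtcagttg
The strongest member of all, upstream of PABIR1, held no TGACAG in the 100 bases around its summit and is printed for contrast. Its 500 bp window did hold the word further out.
PABIR1, chr9:71394734-71394833, plus strand: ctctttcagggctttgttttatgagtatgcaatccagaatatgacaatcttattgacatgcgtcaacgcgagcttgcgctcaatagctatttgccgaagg

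The rule set a floor of 5 and no ceiling, and the members spread over a wide range in each replicate. In replicate 1 their −log10 p ran from 5.05 to 46.2 with a median of 9.78, and in replicate 2 from 5.01 to 43.4 with a median of 8.54. Fold enrichment against Input, as the authors computed it, was lower in replicate 1 (median 3.34) than in replicate 2 (median 4.39). The scales of −log10 p and fold therefore disagreed on which replicate was higher: 445 members (60.9%) had the higher −log10 p in replicate 1, yet 114 (15.6%) had the higher fold there. Fold reached 4 in both replicates at 136 members (18.6%). The median −log10 p of the 240 reproducible promoter peaks was 29.5 in the first replicate and 27.8 in the second, and the lowest value any of them had in its weaker replicate was 13.0, which 38 members (5.2%) also reached. These strengths chose the members and are given with no test.

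**Figure D1:**
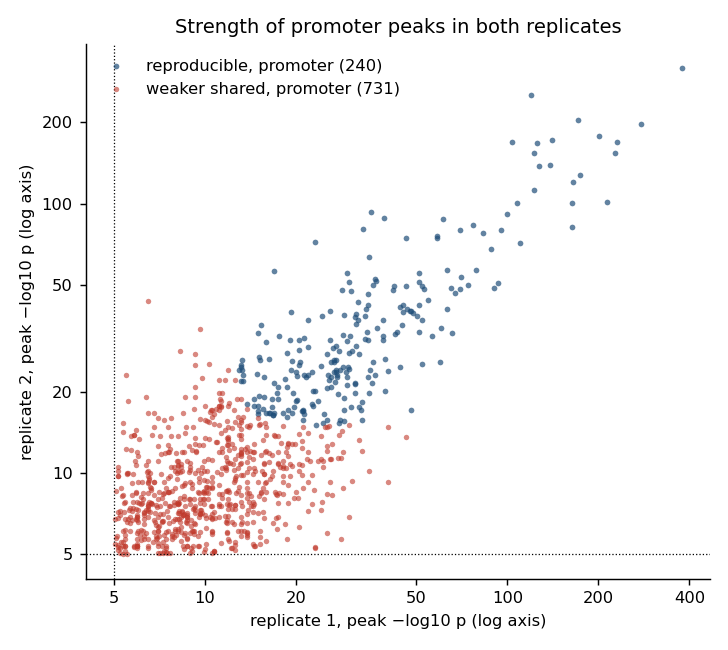
Peak −log10 p in replicate 1 (x, log axis) against the strongest overlapping replicate 2 peak (y, log axis), 1 point a peak, for the 731 weaker shared promoter peaks and the 240 reproducible promoter peaks; dotted lines mark the threshold of 5. The members fill the corner above both lines, with values up to 46.2 in replicate 1 and 43.4 in replicate 2.

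Across the 731 members, Spearman's rho of −log10 p between the replicates was 0.32, a value that the rule shapes, since it cut both axes at 5 and took out the peaks of the reproducible list. The summits of the replicates lay a median of 39 bp apart (quartiles 14 and 99.5 bp), within 50 bp of each other at 424 members (58%) and over 250 bp apart at 54 (7.39%). Reproducible promoter peaks had their summits a median of 11 bp apart. The threshold itself separated near neighbours. SYT11, KIF20A and CEP95 were just inside with a lower value of 5.01, 5.01 and 5.05. THAP7, UGGT1 and SUPV3L1 were just outside with 4.99, 4.99 and 4.98.

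Most members sat just upstream of the gene start. The summit lay upstream of the nearest canonical TSS at 547 of the 731 members (74.8%, Wilson 95% interval 71.6 to 77.8), with a median of 117 bp upstream and quartiles at −280.5 and 1.5 bp, where negative values are upstream. The 200 bp before the TSS held 283 members, the 100 bp after it 74, and the next 100 bp 10. Reproducible promoter peaks were upstream in 79.6% of cases, a difference from the members that did not pass Fisher's exact test (two-sided, odds ratio 0.763, 95% interval 0.534 to 1.09, p = 0.14). The summit lay outside every canonical protein-coding transcript at 517 members, in an intron at 117, in an untranslated exon at 79 and in a coding exon at 18.

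**Figure D2:**
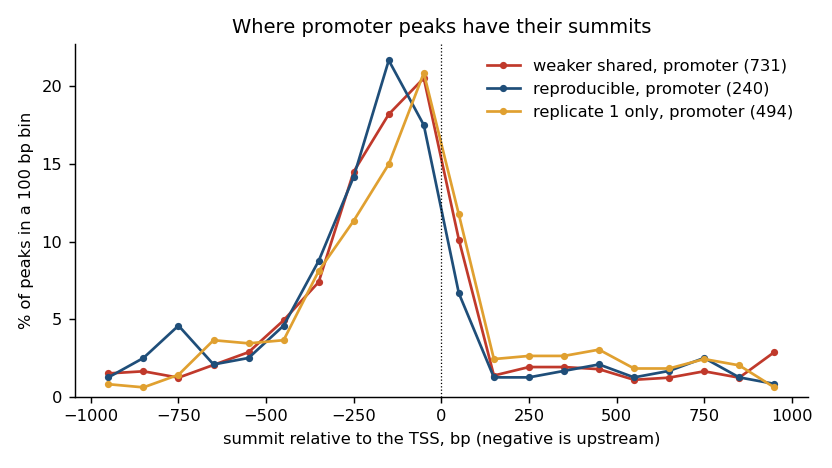
Share of peaks (y, %) by the position of the summit relative to the nearest canonical TSS in bins of 100 bp (x, bp, negative is upstream) for 731 weaker shared, 240 reproducible and 494 replicate 1 only promoter peaks. All 3 lines are highest within 200 bp upstream of the TSS, and 74.8% of the members lie to the left of the dotted line at 0.

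Some members lay between a pair of genes. A second canonical protein-coding TSS was within 1 kb of the summit at 108 members, so the 731 peaks touched 844 of 19894 genes (4.24%). Reproducible promoter peaks touched 260 genes (1.31%), and 1 gene had both kinds. The rule took out peaks that overlap the reproducible list, which leaves little room for a gene to have both. Divergent promoters, where 2 genes within 1 kb of each other are transcribed away from each other, made up 84 of the members (11.5%, Wilson 95% interval 9.38 to 14.0) against 7.92% of reproducible promoter peaks and 9.45% of all canonical TSS. The difference between members and reproducible promoter peaks did not pass Fisher's exact test (two-sided, odds ratio 1.51, 95% interval 0.897 to 2.54, p = 0.147). The strong peak at TERF2IP, which encodes the telomere protein RAP1, is such a case: it also lies 129 bp upstream of KARS1, which encodes the enzyme that charges lysine tRNA.

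The MEIS core was common under the members, less common than under reproducible promoter peaks and more common than under promoter peaks seen in replicate 1 alone. TGACAG, searched on both strands in 500 bp windows, was in 399 of 731 members (54.6%, Wilson 95% interval 50.96 to 58.2), 160 of 240 reproducible promoter peaks (66.7%) and 215 of 494 replicate 1 only promoter peaks (43.5%). Windows of the same length at all 19894 canonical TSS, centred 117 bp upstream, held it in 21.9% of cases. By Fisher's exact test (two-sided, adjusted over 18 words) members differed from reproducible promoter peaks (odds ratio 0.601, 95% interval 0.443 to 0.815, adjusted p = 0.0106) and from replicate 1 only promoter peaks (odds ratio 1.56, 95% interval 1.24 to 1.96, adjusted p = 0.00138). Neither difference passed the exact test when both replicates had to reach a −log10 p of 10, which left 176 members (adjusted p = 0.245 and 0.90).

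The joint PBX-MEIS word separated the groups further. TGANTGACA, which contains most of the core and so is not independent of it, was in 92 members (12.6%), 67 reproducible promoter peaks (27.9%) and 26 replicate 1 only promoter peaks (5.26%), with 2.1% of all TSS windows holding it. The odds ratio against reproducible promoter peaks was 0.372 (95% interval 0.26 to 0.531, Fisher's exact test, adjusted p = 2.04e-06) and against replicate 1 only promoter peaks 2.59 (95% interval 1.65 to 4.07, adjusted p = 0.000221). The free position of the word was G in 43 and T in 35 of its 98 occurrences in members, C in 14 and A in 6.

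**Figure D3:**
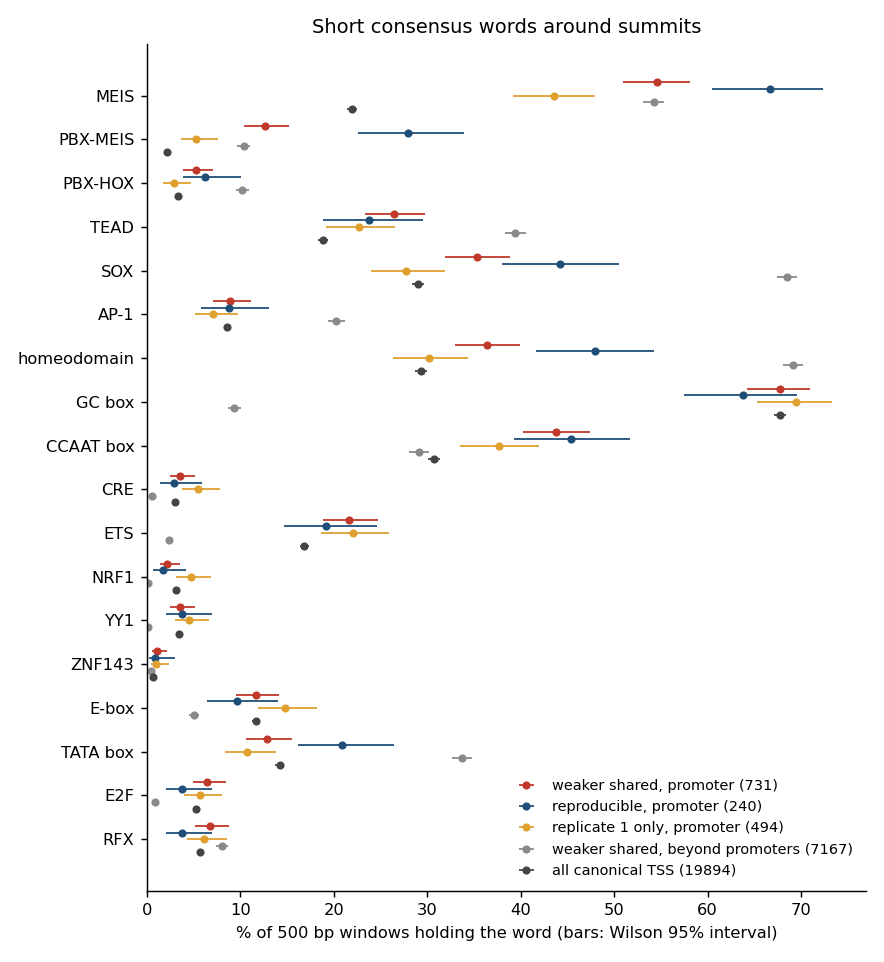
Share of 500 bp windows (x, %) that hold each of 18 short consensus words (y) on either strand in the 731 members, the 240 reproducible and 494 replicate 1 only promoter peaks, the 7167 weaker shared peaks beyond promoters and at all 19894 canonical TSS; bars are Wilson 95% intervals. TGACAG (MEIS) goes from 21.9% at all TSS to 54.6% in members and 66.7% in reproducible promoter peaks, while the GC box is near 67.7% in members and at 9.33% beyond promoters.

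Among the other words, members were nearer to promoters at large than to weaker shared peaks elsewhere. The rule placed members at promoters and the other peaks away from them, so higher shares of promoter words in members were to be foreseen. The GC box GGGCGG was in 67.7% of members, 67.8% of all TSS windows and 9.33% of weaker shared peaks beyond promoters (Fisher's exact test, odds ratio 20.4, adjusted p = 7.77e-270). The ETS word CCGGAAG was in 21.6% of members, 16.8% of all TSS windows and 2.3% of peaks beyond promoters (odds ratio 11.7, Fisher's exact test as above, adjusted p = 4.79e-80). The SOX words ACAATG and ACAAAG were in 35.3% of members and 68.5% beyond promoters (exact test, odds ratio 0.25, adjusted p = 1.8e-67), the homeodomain word TAATT in 36.4% against 69.2% (odds ratio 0.255, adjusted p = 3.89e-66) and the TEAD word GGAATG in 26.4% against 39.4% (odds ratio 0.551, adjusted p = 3.49e-12). In windows of 50 to 60% GC, chosen after seeing the data, TAATT did not pass the exact test (37.9% against 38.6%, odds ratio 0.971, adjusted p = 0.842). The SOX and TEAD words still differed there (exact test, odds ratios 0.396 and 0.589, adjusted p = 1.59e-11 and 0.000378). Of the 18 words, 12 differed in that class. All TSS windows, without regard to GC class, held the SOX words in 29%, TAATT in 29.3% and the TEAD word in 18.8% of cases. The CCAAT box was in 43.8% of members, above both all TSS windows (30.7%) and weaker shared peaks beyond promoters (29.1%). In all, 15 of the 18 words differed from weaker shared peaks beyond promoters, 4 from reproducible promoter peaks and 3 from replicate 1 only promoter peaks. The 4 were the MEIS, PBX-MEIS and homeodomain words and the TATA box TATAAA, each less frequent in members, and the 3 were the MEIS, PBX-MEIS and SOX words, each more frequent in members.

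TGACAG itself was in 54.6% of members and 54.2% of weaker shared peaks beyond promoters, a difference that did not pass (odds ratio 1.02, 95% interval 0.871 to 1.18, Fisher's exact test, adjusted p = 0.876). The windows differed in composition, with a median GC content of 57.8% in members and 42% beyond promoters. In windows of 50 to 60% GC, a comparison chosen after seeing the data, TGACAG was in 50.3% of 314 members and 58.9% of 995 peaks beyond promoters (odds ratio 0.707, 95% interval 0.548 to 0.912, Fisher's exact test, adjusted p = 0.0146). In the other classes, which were not tested, members were not below: under 50% GC it was in 58.8% of members and 53.3% of peaks beyond promoters, and at 60% or more in 57.3% and 56.7%.

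Base composition also differed among the groups of promoter windows. The median GC content was 54.2% in reproducible promoter peaks, 57.8% in members, 60% in replicate 1 only promoter peaks and 62.2% at all TSS. Windows of at least 60% GC made up 281 of the members (38.4%) against 25.8% of reproducible promoter peaks (odds ratio 1.79, 95% interval 1.3 to 2.48, Fisher's exact test, two-sided, p = 0.000343). The words were therefore also counted within classes of GC content. TGACAG was in 58.8% of members under 50% GC, 50.3% of those from 50 to 60% and 57.3% of those at 60% or more, while TSS windows with neither kind of peak held it in 28%, 25.6% and 16.6%. TGANTGACA was in 13.2%, 14.6% and 9.96% of members and in 2.21%, 1.68% and 1.16% of those TSS windows. From 50 to 60% GC the word TGANTGACA still differed from reproducible promoter peaks (odds ratio 0.329, adjusted p = 0.000523) and replicate 1 only promoter peaks (odds ratio 3.55, adjusted p = 0.0062) by Fisher's exact test, whereas the difference in TGACAG from replicate 1 only promoter peaks did not pass there (odds ratio 1.4, 95% interval 0.974 to 2, adjusted p = 0.372).

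The core word was concentrated at the summit. Of the 531 occurrences of TGACAG in member windows, 284 (53.5%) had their centre within 50 bp of the replicate 1 summit, with a median distance of 43 bp. In reproducible promoter peaks 146 of 211 (69.2%) did so, with a median distance of 19 bp, and the difference passed Fisher's exact test (two-sided, odds ratio 0.512, 95% interval 0.365 to 0.718, p = 0.000102). The test counted occurrences, and those in the same window share a summit and are not independent. At all TSS windows the share was 21%. TGANTGACA was closer still, with 69 of 98 occurrences in members within 50 bp (70.4%) and a median distance of 18.5 bp, and its share at all TSS windows was 35.9%. TGACAG ran along the gene's own strand in 241 of the 531 occurrences (45.4%, Wilson 95% interval 41.2 to 49.6), and 108 members held it at least 2 times.

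**Figure D4:**
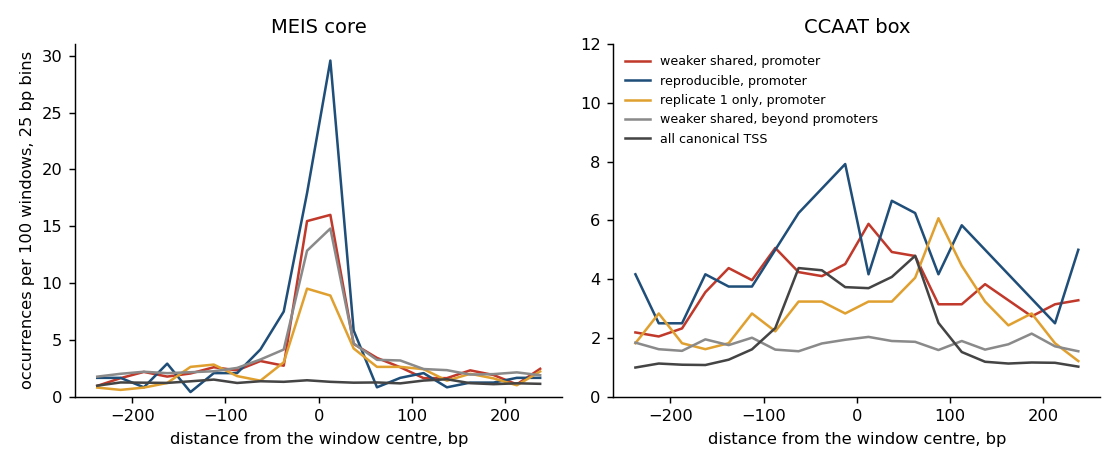
Occurrences per 100 windows in bins of 25 bp (y) by distance from the window's centre (x, bp) for TGACAG (left) and the CCAAT box (right); the centre is the replicate 1 summit for peaks, and a point 117 bp upstream of the TSS for all canonical TSS. TGACAG rises to a narrow peak at the summit in members, lower than that of reproducible promoter peaks, and the CCAAT box forms no such peak in members, where 26.2% of its occurrences lie within 50 bp.

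A CCAAT box, searched as ACCAAT or GCCAAT, was in 320 members (43.8%), 45.4% of reproducible promoter peaks, 37.7% of replicate 1 only promoter peaks and 30.7% of all TSS windows. The difference between the first 2 did not pass (odds ratio 0.936, 95% interval 0.698 to 1.25, Fisher's exact test, adjusted p = 0.949), nor did that between members and replicate 1 only promoter peaks (odds ratio 1.29, 95% interval 1.02 to 1.63, adjusted p = 0.1). It was in 43.4% of the 399 members with TGACAG and 44.3% of the 332 without. Members with TGACAG had a median −log10 p of 10.1 and 8.79 in the replicates, those without 9.19 and 8.26, and those with TGANTGACA 11.2 and 9.32. Neither MEIS word was found in 312 members, and 5 held none of the 18 words.

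Counting every six-letter word without choosing any gave a like picture. Of the 1959 hexamers found in at least 50 members, counted with their reverse complements, TGTCAA had the highest ratio of the share of members to the share of TSS windows, 28.2% against 11.3% (2.49 times), and CTGTCA, the reverse complement of TGACAG, was next with 54.6% against 21.9% (2.49 times). GATTGA (20.2% against 8.83%) and ATTGAC (16.8% against 7.53%) followed. These 2 and TGTCAA are parts of TGANTGACA with T at its free position, and they share bases with each other.

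The 10 strongest members, of which 9 are described, lay at genes of varied function. At PABIR1, which encodes an inhibitor of the phosphatase PP2A, the peak chr9:71394375-71395287 reached a −log10 p of 15.8 (replicate 1) and 15.4 (replicate 2), with its summit 197 bp upstream of the TSS and inside an intron of PIP5K1B. At ZNF132, a zinc finger gene, the peak reached 15.0 and 15.1, but the summits lay 142 bp apart. Both were near even between the replicates, and most of the others were not.

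SCRN3 reached a −log10 p of 29.9 (replicate 1) and 15.0 (replicate 2), with its summit in the untranslated part of exon 1, and ENSG00000257355 had 25.8 and 14.9. AKTIP, whose product binds the kinase AKT, had the widest gap of the 10, with 40.4 in replicate 1 and 14.8 in replicate 2. SMPD1, which encodes acid sphingomyelinase, had 25.2 and 14.8, and SLC25A28, which encodes a mitochondrial iron carrier, had 24.9 and 14.8. In each of these the replicate 1 value was the higher. COQ10B, whose product binds coenzyme Q, had 18.1 and 14.9, and TERF2IP had 15.0 and 16.0. Fold enrichment at the 10 was 3.53 to 7.8 (replicate 1) and 5.54 to 6.77 (replicate 2). AKTIP, SMPD1 and SLC25A28 tied in replicate 2 with ASF1B and FBRS, and the higher replicate 1 value put them first. Of the other members printed above for their words, CP, which encodes the copper protein ceruloplasmin, had 17.0 and 13.8 and STX7, a syntaxin of endosomes, had 13.8 and 17.3.

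Zinc finger genes made up the largest named group. Of the 504 genes named ZNF with a number, many of which encode C2H2 zinc finger repressors of transcription, 45 (8.93%, Wilson 95% interval 6.74 to 11.7) had a member at the TSS, beside 4.24% of all genes, and 24 (4.76%) had a reproducible promoter peak, beside 1.31%. On chromosome 19, where these genes stand in clusters, 32 of 243 (13.2%) had a member, against 13 of 261 (4.98%) on the other chromosomes and 57 of 1228 (4.64%) of the remaining genes of chromosome 19. By −log10 p in replicate 1 and then 2, the 3 strongest were ZNF132 (15.0 and 15.1), ZNF878 (25.8 and 14.9) and ZNF823 (15.6 and 13.3).

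The MEIS words were far more frequent at these members than at the rest. The 45 genes share 44 peaks, of which 38 held TGACAG (86.4%) and 26 held TGANTGACA (59.1%), beside 52.5% and 9.61% of the other 687 members. The peaks are not independent of each other, since 19 of the 44 shared a run of at least 30 identical bases with another member elsewhere in the genome, as 12 of the other 687 did. The free position of TGANTGACA was G in 22 of its 29 occurrences in these peaks and in 21 of 69 in other members. In the 500 bp windows centred 117 bp upstream of the TSS, zinc finger genes with a reproducible promoter peak held the words more often still. There TGACAG was in 95.8% and TGANTGACA in 79.2% of 24 genes, beside 80% and 55.6% of the 45 genes with a member. These comparisons were chosen after seeing the data and are given with no test. Short stretches from the 4 strongest peaks with TGANTGACA whose nearest TSS belongs to a ZNF gene are shown because the last 3 are closely alike. The reverse complement of the word is in capitals.
ZNF823, chr19:11849883-11849912, minus strand: tcgcttcttcTGTCAATCAgccaccaaggg
ZNF626, chr19:20844484-20844513, minus strand: tcacatctacTGTCACTCAgggcctcaggg
ZNF675, chr19:23870087-23870116, minus strand: tcacatcttcTGTCACTCAgggcctgaagg
ZNF91, chr19:23578381-23578410, minus strand: tcacatcttcTGTCACTCAgggcctgagaa
The word's centre stood 137, 122, 88 and 123 bp upstream of the TSS in this order. ZNF626 had a −log10 p of 20.9 and 12.4 in the replicates, ZNF675 25.2 and 12.1, and ZNF91 33.1 and 12.1. The authors' filter on mapping quality removes reads that map equally well to several places, so values in near-identical sequence are uncertain.

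Counted from the DNA side, 64 of the 504 zinc finger genes held TGANTGACA around the TSS (12.7%), against 353 of 19390 other genes (1.82%). The 500 bp window was centred 117 bp upstream, the members' median, and reached past the TSS. Of the 64, 25 had a member (39.1%, Wilson 95% interval 28.1 to 51.3) and 19 a reproducible promoter peak (29.7%). Of the 440 zinc finger genes without the word, 20 had a member (4.55%) and 5 a reproducible promoter peak (1.14%). Among other genes, 55 of the 353 with the word had a member (15.6%) and 744 of 19037 without it (3.91%).

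**Figure D5:**
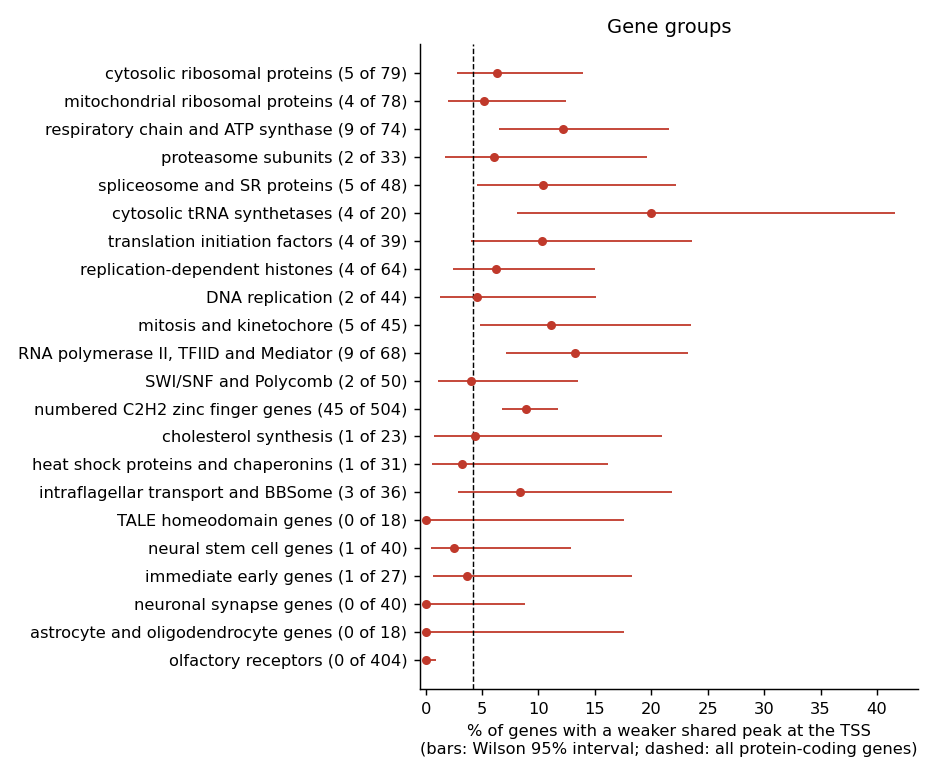
Share of genes with a weaker shared peak at the TSS (x, %) in 22 gene groups (y, with the number of genes); bars are Wilson 95% intervals and the dashed line is the 4.24% of all protein-coding genes. The intervals of 6 groups lie wholly to the right of the line, those of zinc finger genes (8.93%), RNA polymerase II with TFIID and Mediator (13.2%), the respiratory chain (12.2%), tRNA synthetases (20%), the spliceosome (10.4%) and mitosis (11.1%), and olfactory receptors are at 0.

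Members were also counted in groups of genes that most cells use, each read against the 4.24% of all genes. A peak counted for every gene with a TSS within 1 kb of its summit, so a gene named here need not be the nearest. The groups were picked with earlier results known, and overlap of a Wilson interval with that share is a description of the count, not a test. Of 68 genes of RNA polymerase II, TFIID and Mediator, 9 had a member (13.2%, interval 7.12 to 23.3). TBP, the protein that binds the TATA box, had a −log10 p of 12.9 and 11.7 in the replicates, from a peak that also lies at the proteasome gene PSMB1. TAF12, a TFIID subunit, had 7.27 and 8.37, and MED11, a Mediator subunit, had 6.83 and 7.15. MED1, POLR2A, TAF5, MED30, MED20 and GTF2A1 were the others.

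Of 74 subunits of the respiratory chain and ATP synthase, 9 had a member (12.2%, interval 6.53 to 21.5). None had a reproducible promoter peak, beside 1.31% of all genes, and at this number of genes no lack can be read. The strongest were the complex I subunits NDUFA11 with 22.2 and 11.1, NDUFB3 with 9.88 and 12.7 and NDUFA12 with 18.8 and 9.08. The NDUFA11 peak lay nearer to the TSS of ENSG00000267314, and the NDUFB3 peak nearer to that of HYCC2. Of 20 cytosolic tRNA synthetases, 4 had a member (20%, interval 8.07 to 41.6), namely KARS1 with 15.0 and 16.0, YARS1 with 21.8 and 11.3, QARS1 with 9.91 and 8.04 and FARSB with 6.92 and 7.5. These enzymes attach amino acids to their tRNAs. The KARS1 peak lay nearer to the TSS of TERF2IP, and the YARS1 peak nearer to that of S100PBP. Spliceosome genes had 5 of 48 (10.4%, interval 4.53 to 22.2), led by SRSF10 with 7.55 and 14.9, and SNRPD2 and SNRPA followed. Genes of mitosis and the kinetochore had 5 of 45 (11.1%, interval 4.84 to 23.5), led by NUF2, a kinetochore protein, with 16.3 and 9.49, then ESPL1 and CCNB2.

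The shares of the remaining groups of this kind had intervals that include 4.24%. Translation initiation factors had 4 of 39 (10.3%), with EIF4B at 10.9 and 13.0, EIF2S1 at 10.5 and 17.2 and EIF5A at 9.3 and 7.53. The EIF2S1 peak lay nearer to the TSS of ATP6V1D. A reproducible promoter peak was at 5 of the 39 genes (12.8%), beside 1.31% of all genes. Cytosolic ribosomal proteins had 5 of 79 (6.33%), with RPL7 at 17.7 and 10.6, RPL3 at 11.9 and 8.65 and RPL35A at 8.29 and 28.4. Mitochondrial ribosomal proteins had 4 of 78 (5.13%), led by MRPS27, MRPL2 and MRPS9. Replication-dependent histone genes, which are near-identical copies and so uncertain, had 4 of 64 (6.25%), led by H3C12, H4C1 and H4C8. Genes that build the primary cilium had 3 of 36 (8.33%), BBIP1, IFT27 and WDR19. Proteasome subunits had 2 of 33 (PSMB1 and PSMA3), DNA replication 2 of 44 (RFC5 and POLD3), and SWI/SNF and Polycomb 2 of 50 (DPF3 and EED). Cholesterol synthesis, with PMVK, and heat shock proteins, with HSPA13, had 1 each, of 23 and 31 genes.

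Groups of genes of neural cells, MEIS relatives and immediate early genes had few members, and apart from olfactory receptors their intervals include 4.24%. Of 40 neural stem cell genes 1 had a member (2.5%, interval 0.443 to 12.9), the eye and forebrain factor PAX6. Its −log10 p was 13.1 and 18.8 in the replicates, with a summit 257 bp downstream of the TSS. A reproducible promoter peak was at 5 of the 40 genes (12.5%), beside 1.31% of all genes. Of the 18 TALE genes, MEIS and its relatives, none had a member (Wilson upper limit 17.6%) and 4 (22.2%) had a reproducible promoter peak. Since the rule leaves little room for both at a gene, the counts of the 2 kinds of peak are not independent. Of 27 immediate early genes 1 had a member, JUNB, with 16.9 and 13.8. None of 40 neuronal synapse genes, 18 genes of astrocytes and oligodendrocytes and 404 olfactory receptors had a member, which leaves Wilson upper limits of 8.76%, 17.6% and 0.942%. For the first 2 the limit is above the share of all genes, so no lack can be read at these numbers of genes.

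The members were spread over all autosomes, the chromosomes counted here. Among these the share of genes with a member ran from 2.03% on chromosome 22 to 6.05% on chromosome 19. Chromosome X, which also held members, among them those at LPAR4 and PIR, was not part of this count. The nearest reproducible site lay within 50 kb of 100 members (13.7%, Wilson 95% interval 11.4 to 16.4), near the 12.3% of replicate 1 only promoter peaks (9.73 to 15.5), and below the 30.7% of weaker shared peaks beyond promoters (29.6 to 31.7). The median distance was 230 kb for members.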

How the data were processed

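Titles gave the groups. Per the labels and the study's methods, the authors trimmed 36 bp read pairs with cutadapt 1.16, mapped them to GRCh37 with Bowtie2 2.3.0, filtered at a mapping quality of 30 with SAMtools 1.2, removed duplicates with Picard 2.15.0, called peaks per replicate against Input with MACS2 at a p of 0.01, and ranked both lists by IDR. The deposited peak lists hold fold enrichment over Input (a linear ratio) and −log10 p and −log10 q values. From the list of reproducible sites only intervals and summits were used. Read depth is unknown, so intervals cover the number of peaks alone.

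Overlap meant 1 bp or more. TSS were those of canonical transcripts of protein-coding genes in GENCODE 44 on GRCh37, and genes were counted when any such TSS lay within 1 kb of a summit. Differences between shares were tested by Fisher's exact test (two-sided, scipy), Benjamini-Hochberg adjusted over the 18 words of a comparison, at 0.05, with Woolf 95% intervals on odds ratios. Peaks are not replicates, so these tests describe these libraries. The code was tested on simulated data. A word is a short string, and its match is not a shown binding site.

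The members, words and gene lists were chosen with earlier results of these data known. Genes named are, by the lower −log10 p of the replicates, the 10 first members, the 5 first with TGANTGACA, the 5 first with TGACAG within 50 bp of the summit, the 3 first of each gene list, and 3 on each side of the threshold. Other genes were named after their values were seen, as were the sequences at zinc finger genes. Alternatives changed strength, overlap, distance, annotation, windows and replicates, and 2 were added after seeing the data, namely windows of 50 to 60% GC and leaving out peaks at zinc finger genes. Chromosome Y was left out of named genes. One of the 10 first members, and one of those with TGANTGACA, is not reported here.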

Additional observations from a re-analysis of the deposited data

How the results depend on the processing

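No paired analysis was possible because Input libraries, which share replicate numbers with the ChIP, have no values analysed here on their own. The number of members, 731, became 1184 and 176 when −log10 p had to reach 3 and 10, and lay between 1247 and 1431 when 1 replicate was left out and no overlap was asked. The share of genes, 4.24%, became 6.95% and 1.05% with those thresholds, 4.84% with a −log10 q of at least 2, 3.47% and 5.02% with summits within 500 bp and 2 kb, 3.52% with an overlap of 50% of each peak, 5.17% with all basic transcripts, and 7.17% to 8.41% without 1 replicate. For TGACAG, members kept an odds ratio under 1 against reproducible promoter peaks in 13 of 13 alternatives, 12 of them past the threshold, and over 1 against replicate 1 only promoter peaks in 11 of 11, 9 of them past it. The exceptions were a −log10 p of at least 10 (0.689 and 1.16) and, against replicate 1 only promoter peaks, windows of 50 to 60% GC (1.4). Against weaker shared peaks beyond promoters, where the odds ratio was 1.02, it was over 1 in 5 of 13 alternatives and under 1 in the other 8 (0.707 to 1.10 in all). It passed Fisher's exact test in 2, without replicate 2 (0.877, adjusted p = 0.0234, and 0.904 without replicate 1) and in windows of 50 to 60% GC (0.707). The causes were not tested. Words that differed from reproducible promoter peaks, 4, were 0 at a −log10 p of at least 10 by Fisher's exact test (3 at an unadjusted p under 0.05), 2 to 5 without 1 replicate, and 2 each in 200 bp windows and in windows of 50 to 60% GC. Those that differed from replicate 1 only promoter peaks, 3, were 0 (2 unadjusted), 7 with all basic transcripts and 1 in windows of 50 to 60% GC. By Fisher's exact test, summits upstream and divergent promoters passed the threshold with a −log10 p of at least 3 (odds ratios 0.672 and 1.67, p = 0.0243 and 0.0476). Leaving out 1 replicate gave odds ratios of 0.668 to 0.769 and 1.44 to 1.77 there, past the threshold of the exact test without replicate 2 (p = 0.0179 and 0.02). Leaving out peaks at zinc finger genes left 3 words in place of 4 that differed from reproducible promoter peaks, and the other tests of a single odds ratio kept their side of the threshold.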
